A study of Mus musculus with 8 samples.

Results

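The genes described here encode the structural proteins of the vascular basement membrane: the collagen IV chains Col4a1 and Col4a2, the laminin chains Lama4, Lama5, Lamb1, Lamb2 and Lamc1, the nidogens Nid1 and Nid2, and the perlecan core protein Hspg2. They were chosen by symbol, and all 10 had a row among the 34899 genes of the deposited table and passed the filter on low counts. RNA-seq had been done on endothelial cells sorted from mouse lung for surface CD31 and the absence of CD45. There were 4 libraries from HF mice and 4 from LF mice, and all mice were female and of strain C57BL6. The labels use HF and LF without spelling them out, and they state no age, diet or further treatment. The title of the study names obesity, with neutrophils as a source of oxidative stress in inflamed vessels and metastasis. The comparison asks whether transcripts of the sheet beneath the endothelium differed between HF and LF mice.

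A basement membrane is a thin sheet of extracellular matrix on which endothelium rests, and in the alveolus it is partly shared with the epithelium. Laminins are trimers of an alpha, a beta and a gamma chain that polymerise on the cell surface, and collagen IV forms a second network of trimers that are crosslinked to each other. In most vessels a collagen IV trimer joins the chains of Col4a1 and Col4a2, and the laminins carry the alpha chains of Lama4 and Lama5. Nidogens bridge the laminin and collagen IV networks, and perlecan is a large heparan sulfate proteoglycan that binds both and holds growth factors.

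Col4a1 and Col4a2 lie next to each other, head to head, and are read in opposite directions away from their shared start region. In GENCODE M21 (GRCm38), Col4a1 (ENSMUSG00000031502) lies on the minus strand of chromosome 8 from 11198423 to 11312826, and Col4a2 (ENSMUSG00000031503) on the plus strand from 11312805 to 11449287. Their first exons overlap by 22 bases at the 5′ ends. The RefSeq promoter windows (GRCm38.p6), which run from 250 bases before to 50 after a start, share 78 bases for this pair. They are shown because the windows of Col4a1 and Col4a2 overlap, together with the window of Nid1, the gene of the set whose values ran closest to those of Col4a1. Capitals mark CCAAT and GGGCGG on either strand, and the windows are chr8:11312777-11313076, chr8:11312555-11312854 and chr13:13437352-13437651.
Col4a1 (minus strand): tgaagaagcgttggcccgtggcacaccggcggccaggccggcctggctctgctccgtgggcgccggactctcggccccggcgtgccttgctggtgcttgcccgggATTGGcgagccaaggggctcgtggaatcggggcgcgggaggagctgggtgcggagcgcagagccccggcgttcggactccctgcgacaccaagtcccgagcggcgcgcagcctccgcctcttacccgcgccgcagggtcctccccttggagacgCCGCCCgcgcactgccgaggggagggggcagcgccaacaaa
Col4a2 (plus strand): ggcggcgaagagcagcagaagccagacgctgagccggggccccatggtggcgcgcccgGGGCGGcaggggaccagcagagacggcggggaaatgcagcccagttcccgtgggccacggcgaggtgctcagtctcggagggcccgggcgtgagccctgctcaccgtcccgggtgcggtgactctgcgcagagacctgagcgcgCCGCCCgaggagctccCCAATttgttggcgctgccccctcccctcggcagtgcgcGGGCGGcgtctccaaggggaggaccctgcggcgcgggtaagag
Nid1 (plus strand): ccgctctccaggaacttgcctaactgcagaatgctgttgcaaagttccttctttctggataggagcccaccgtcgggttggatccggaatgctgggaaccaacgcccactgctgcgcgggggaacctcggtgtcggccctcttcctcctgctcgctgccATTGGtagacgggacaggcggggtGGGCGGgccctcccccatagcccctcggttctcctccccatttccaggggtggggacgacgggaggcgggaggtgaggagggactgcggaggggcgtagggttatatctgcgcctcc
Each window held 1 match to CCAAT. The Col4a2 window held 3 matches to GGGCGG, and those of Col4a1 and Nid1 held 1 each. The Col4a1 match and 1 of the Col4a2 matches are the same bases, which lie within both first exons. Of all 32851 RefSeq windows of that length, 37.4% held CCAAT and 35.7% held GGGCGG. The letters TATAAA, present in 13.6% of all windows, were found in none of the 7 member windows that RefSeq gave. G and C made up 74.0% of the Col4a1 window, 73.7% of that of Col4a2 and 64.7% of that of Nid1, against a median of 52.7% over all windows. These matches describe the letters of the windows and are not binding sites. The bases transcribed into both first exons, on the plus strand, are these:
Shared first-exon bases: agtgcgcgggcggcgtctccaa

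Values are the authors' normalised read counts, which are not scaled for gene length, and groups are given as mean ± SD with n = 4. Folds are HF over LF from limma on log2(value + 1), with 95% intervals. The design text counts 4 mice in each group, the same as the number of libraries. Libraries held 10631506 to 20781564 reads assigned to genes. Pecam1, which encodes the CD31 used in the sort, was 28252 ± 1063 in HF against 25381 ± 6906 in LF. Ptprc, which encodes CD45, was at 166 ± 72.8 and 199 ± 59.0. On the first principal component of the genes tested (36.1% of variance), LF 1 (-56.4) and LF 2 (-50.9) lay apart from the other 6 libraries, which ranged from -6.79 to 39.6. On the second (17.5% of variance), LF 3 (38.5) and LF 4 (34.2) lay apart from the others, which ranged from -29.6 to 1.41. Fold changes of the 10 genes and medians of the gene lists are therefore also given with either LF pair, 1 and 2 or 3 and 4, left out. The pairs were chosen from these same values and each such fit keeps only 1 LF pair. Calls and adjusted p of these fits are therefore descriptive and not independent tests. In these bulk samples, fewer cells of a type and less RNA per cell cannot be told apart.

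Collagen IV was the most abundant component of the set and had nearly equal means in HF and LF. Col4a1 was at 11528, 12521, 11894 and 13686 in HF 1 to HF 4, and at 9310.25, 11052, 12163 and 17206 in LF 1 to LF 4. The LF libraries held both the lowest and the highest Col4a1 value, and the HF libraries lay between them. The group means were 12407 ± 946 and 12433 ± 3392, a fold of 1.02 with an interval of 0.780 to 1.34 (limma adjusted p = 0.956). For Col4a1 and Col4a2 the arithmetic mean was slightly lower in HF and the mean of log2 values, on which the fold rests, slightly higher. Col4a2 was at 6403, 6441, 6469 and 7527 in HF and at 5247, 6756, 6492 and 8643 in LF. As with Col4a1, LF 1 was lowest and LF 4 highest, and the groups overlapped. Its means were 6709.9 ± 545 and 6785 ± 1403, a log2 fold change of 0.0034 with an interval of -0.33 to 0.34 (limma adjusted p = 0.997). If strand was not used in counting, reads in the 22 shared bases could not be assigned to one of the genes, a small part of exon lengths of 7464 and 6619 bases.

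**Figure D1:**
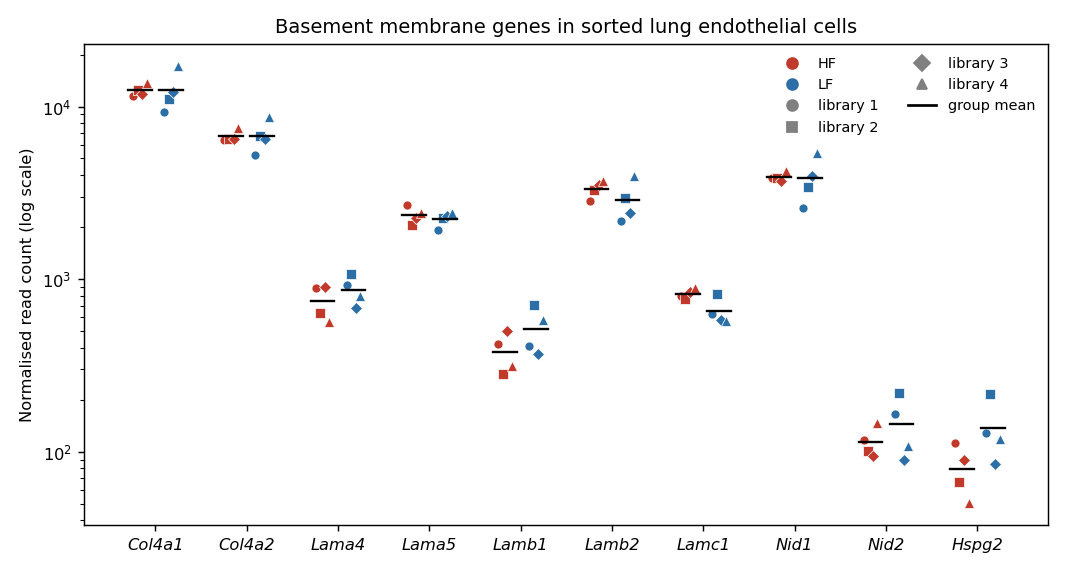
Normalised read counts (log axis) of the 10 basement membrane genes in 4 HF libraries (red) and 4 LF libraries (blue), with a symbol for each library number and a black line at the group mean. The HF and LF points overlap in every gene, and Col4a1 spans 9310.25 to 17206 in LF against 11528 to 13686 in HF.

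Of the laminin alpha chains, Lama5, part of the laminins that bind endothelial integrins most tightly, had similar means and Lama4, the alpha chain found mainly in endothelial and mesenchymal basement membranes, a lower mean in HF. Lama5 (ENSMUSG00000015647, chromosome 2, 180176373 to 180225859) was at 2687, 2056, 2269 and 2407 in HF and at 1928, 2269.5, 2327 and 2403 in LF. Its groups overlapped almost wholly, with a fold of 1.05 (interval 0.875 to 1.27, limma adjusted p = 0.816). Lama4 (ENSMUSG00000019846, chromosome 10, 38965515 to 39110188) was at 888, 636, 898 and 568 in HF and at 928, 1066, 679 and 803 in LF. HF 2 and HF 4 were the lowest libraries for Lama4, while HF 1 and HF 3 lay within the LF range. The fold was 0.855 (interval 0.649 to 1.13, limma adjusted p = 0.655).

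The beta chains, which take the same place in a laminin trimer, differed in the direction of their means. Lamb1 (ENSMUSG00000002900, chromosome 12, 31265234 to 31329644) was at 423, 282, 500.4 and 315 in HF and at 407, 708, 370.3 and 582 in LF. The fold was 0.742 (interval 0.524 to 1.05, limma adjusted p = 0.518). HF 2 and HF 4 were again the lowest libraries, and LF 2 was the highest. Lamb2 (ENSMUSG00000052911, chromosome 9, 108479736 to 108490530) was at 2824, 3288, 3527 and 3694 in HF and at 2169, 2959.5, 2411 and 3941 in LF. The Lamb2 groups overlapped, since LF 4 exceeded every HF library and LF 2 also lay above HF 1. The Lamb2 fold was 1.19 (interval 0.911 to 1.55, limma adjusted p = 0.612).

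Lamc1 (ENSMUSG00000026478, chromosome 1, 153218922 to 153332786), the gamma chain of nearly all vascular laminins, was at 794, 763, 837 and 886 in HF and at 629.5, 825, 579 and 572 in LF. A single LF library, LF 2, lay inside the HF range, and the other 3 lay below it. The means were 820.2 ± 53.5 and 651 ± 118, a fold of 1.27 with an interval of 1.03 to 1.56 (limma unadjusted p = 0.0268, adjusted p = 0.385). Lamc1 had the smallest p of the 10 genes by limma, while by edgeR and DESeq2 Hspg2 had the smaller p (0.0280 against 0.0458 and 0.0147 against 0.0325, both unadjusted). Lamc1 did not pass the adjusted threshold with all 8 libraries.

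The nidogens, which link laminin to collagen IV, were unequal in level. Nid1 (ENSMUSG00000005397, chromosome 13, 13437551 to 13512269) was at 3874, 3842, 3704 and 4206 in HF and at 2571, 3409, 3962 and 5413 in LF. The HF libraries lay close together, with LF 1 and LF 2 below them, LF 3 among them and LF 4 above, as for Col4a1. The fold was 1.05 (interval 0.794 to 1.40, limma adjusted p = 0.884). Nid2 (ENSMUSG00000021806, chromosome 14, 19751265 to 19811787) was at 117, 101.3, 94.2 and 146 in HF and at 166, 219.8, 89.3 and 107 in LF. The fold was 0.827 (interval 0.546 to 1.25, limma adjusted p = 0.712). LF 1 and LF 2 were the highest Nid2 libraries and LF 3 the lowest. Exons of Nid2 overlap those of Rtraf on the other strand over 437 bases, and those of Nid1 overlap the antisense gene Gm48682 over 143 bases. The sources used here do not say whether reads were counted by strand.

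Hspg2 (ENSMUSG00000028763, chromosome 4, 137468769 to 137570630), which encodes perlecan, had the fold farthest from 1 in the set. It was at 113, 66.7, 89.4 and 50.4 in HF and at 128, 215, 85.3 and 119 in LF. LF 2 was the highest library and HF 4 the lowest, and LF 3 lay within the HF range. The means were 79.8 ± 27.2 and 137 ± 55.4, a fold of 0.593 with an interval of 0.373 to 0.944 (limma unadjusted p = 0.0307, adjusted p = 0.397). Hspg2 had the lowest counts of the set, which carry the most relative sampling error.

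None of the 10 genes passed limma at a Benjamini-Hochberg adjusted p under 0.05 (0 of 10), and 0% of the 17067 genes tested did. At an unadjusted p under 0.05, Lamc1 (higher in HF) and Hspg2 (lower in HF) passed, 2 of 10, against 11.0% of all genes tested (6.36% higher and 4.67% lower). edgeR's quasi-likelihood test and DESeq2 on the recovered reads also called 0 of 10. Of all genes, edgeR called 0%. DESeq2 called 2.34% (1.82% higher and 0.524% lower) of the 13923 genes to which it gave an adjusted p. Both tools gave an unadjusted p under 0.05 to Lamc1 and Hspg2 alone among the 10. In the authors' deposited table, 311 of the 15276 genes with an adjusted p were under 0.05, and none of the 10 was among them. That table gives Hspg2 a log2 fold change of -0.78 with a standard error of 0.32 and an adjusted p of 0.224. For Lamc1 the authors' deposited table gives 0.33 with a standard error of 0.15 and an adjusted p of 0.326. For 0 of the 10 genes did the HF values lie all above or all below the LF values, against 5.43% of all genes tested (3.47% above and 1.96% below). Means on the log2 scale were higher in HF for 6 of 10, against 53.2% of all genes. The count was 4 of 10 by edgeR and by DESeq2, where Col4a1 and Col4a2 turned, and 2 of 10 with quantile normalisation, where Lama5 and Nid1 turned too. The median log2 fold change of the 10 was 0.02, the same as over all genes.

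For 5 of the 10 genes, Col4a1, Col4a2, Lama5, Nid1 and Nid2, the sign differed between the fits that leave out an LF pair. Without LF 1 and LF 2, the log2 fold changes were -0.22 for Col4a1, -0.16 for Col4a2, -0.01 for Lama5, -0.25 for Nid1 and 0.20 for Nid2. Without LF 3 and LF 4 they were 0.29, 0.17, 0.16, 0.40 and -0.75 in the same order. The adjusted p of both fits are descriptive, since the pairs were chosen from the same values. Lamc1 alone of the 10 passed limma without LF 1 and LF 2, at 0.51 (adjusted p = 0.0307), where 3.76% of all genes passed. Without LF 3 and LF 4, where 20.0% of all genes passed (14.0% higher and 6.02% lower), Nid1 was higher (adjusted p = 0.0372), and Nid2 (adjusted p = 0.0418) and Hspg2 (adjusted p = 0.0373) were lower in HF by limma. Over all alternatives, adjusted p ranged from 0.0307 to 0.790 for Lamc1, from 0.0372 to 0.979 for Nid1, from 0.0418 to 0.977 for Nid2 and from 0.0373 to 0.804 for Hspg2. Hspg2, Lamb1, Lama4, Lamb2 and Lamc1 kept their sign in both fits: Hspg2 was at -0.39 and -1.11, Lamb1 at -0.33 and -0.54, Lama4 at -0.01 and -0.44, Lamb2 at 0.11 and 0.39, and Lamc1 at 0.51 and 0.18. Groups did not overlap in 1 of the 10 genes (Lamc1) without LF 1 and LF 2, against 22.4% of all genes. Without LF 3 and LF 4 this held for 5 of 10, Col4a1 and Nid1 above and Lama4, Nid2 and Hspg2 below, against 46.1%. Leaving out LF 2 alone parted the groups of Lamc1, against 7.95% of all genes, and leaving out LF 3 alone those of Hspg2, against 9.43%.

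**Figure D2:**
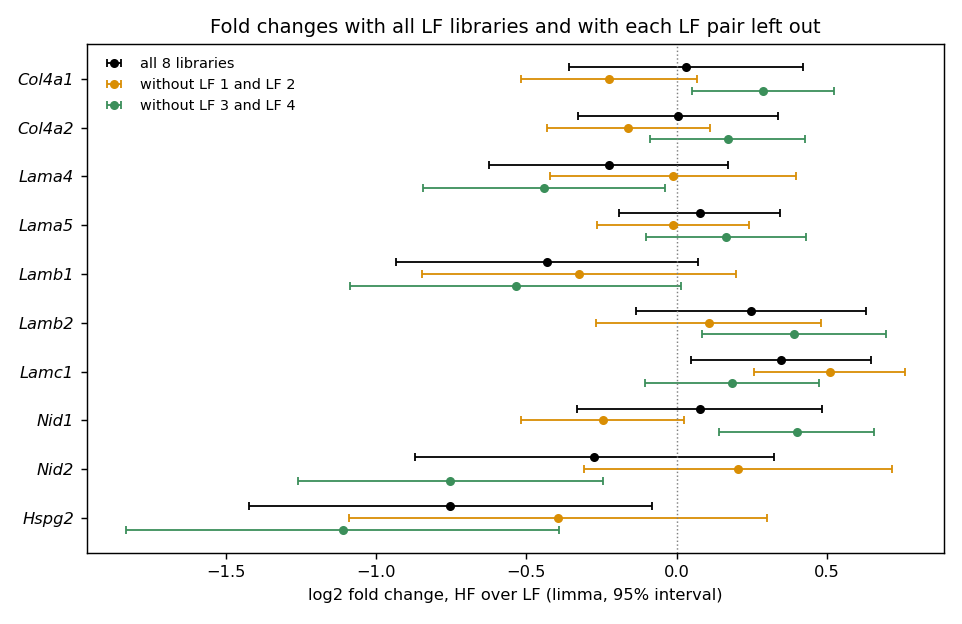
HF over LF on the log2 scale for the 10 genes (95% intervals from limma), with all 8 libraries (black), without LF 1 and LF 2 (orange) and without LF 3 and LF 4 (green). With all 8 libraries the intervals of Lamc1 (0.05 to 0.65) and Hspg2 (-1.42 to -0.08) do not reach 0, and for Col4a1, Col4a2, Lama5, Nid1 and Nid2 the orange and green points lie on opposite sides of 0.

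LF 1 and LF 4 marked the ends of the range for the genes with high levels. LF 1 was the lowest of the 8 libraries for 5 genes, Col4a1, Col4a2, Lama5, Lamb2 and Nid1, and LF 4 the highest for 4 of these, all but Lama5. LF 2 was the highest for the 4 genes with a lower HF mean on the log2 scale, Lama4, Lamb1, Nid2 and Hspg2. On the log2 scale, the SD of Nid1 was 5.77 times as large in LF as in HF, and that of Col4a1 3.45 times. Over all genes tested the median of this ratio was 1.49, and 3.22% of genes had a larger ratio than Nid1 and 11.9% a larger one than Col4a1. For Lama4 and Lama5 the LF spread was the smaller, with ratios of 0.830 and 0.877.

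Divided by exon length in GENCODE M21, the levels kept the same order in nearly all libraries. Means over the 8 libraries, as normalised counts per kilobase of exon, were 1664 for Col4a1 and 1019 for Col4a2, followed by Nid1 at 558, Lamb2 at 509.97 and Lama5 at 201. Lamc1 was at 89.0, Lama4 at 67.0, Lamb1 at 45.2, Nid2 at 25.1 and Hspg2 at 7.57. Each gene was above the next in this order in 8 of 8 libraries, apart from Nid1 over Lamb2 (6 of 8) and Lamc1 over Lama4 (7 of 8), whose levels therefore did not separate. The authors' annotation may give other lengths. Hspg2 was thus the least abundant per length in every library, below Nid2 by 2.50 to 7.99 times.

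The laminin chains that enter a trimer in equal number did not have equal transcript levels. Summed over Lamb1 and Lamb2, beta chains were at 586 ± 61.4 normalised counts per kilobase in HF and 524 ± 139.8 in LF. Alpha chains, summed over Lama4 and Lama5, were at 269 ± 31.9 and 268 ± 18.3, and the gamma chain Lamc1 at 99.2 ± 6.47 and 78.8 ± 14.3. The beta sum was 5.23 to 10.2 times the gamma level over the 8 libraries, and the alpha sum 2.41 to 4.01 times. These are transcript levels per length, and protein was not measured.

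The balance within pairs of related genes, the collagen IV chains, the laminin alpha chains, the laminin beta chains and the nidogens, was compared in each library, since such a ratio does not depend on library scaling. The ratio of Col4a2 to Col4a1 counts was the steadiest, at 0.555, 0.514, 0.544 and 0.550 in HF and 0.564, 0.611, 0.534 and 0.502 in LF. On the log2 scale the means were -0.89 ± 0.05 and -0.86 ± 0.12, a difference of -0.03 (exact two-sided permutation p = 0.714). Per kilobase, Col4a2 was at 0.616 of Col4a1 in the geometric mean, with a range of 0.566 to 0.689.

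The ratio of Lamb2 to Lamb1 was 6.68, 11.7, 7.05 and 11.7 in HF and 5.32, 4.18, 6.51 and 6.77 in LF. HF 2 and HF 4 had the highest ratios, and HF 1 fell just below LF 4, so the groups overlapped by that library. The log2 means were 3.16 ± 0.45 and 2.48 ± 0.32, a difference of 0.68 (exact two-sided permutation p = 0.0571, adjusted p = 0.229 over the 4 ratios). With 4 libraries against 4 the smallest possible p is 0.0286. The ratio of Lama5 to Lama4 was 3.03, 3.23, 2.53 and 4.24 in HF and 2.08, 2.13, 3.43 and 2.99 in LF, a log2 difference of 0.30 (exact permutation p = 0.229, adjusted p = 0.457). LF 1 and LF 2 had the lowest values of this ratio. They also had the highest ratios of Nid2 to Nid1, at 0.0645 each, against 0.0225 and 0.0198 in LF 3 and LF 4 and 0.0254 to 0.0346 in HF. The log2 difference of the nidogen ratio was -0.35 (exact permutation p = 0.429, adjusted p = 0.571).

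**Figure D3:**
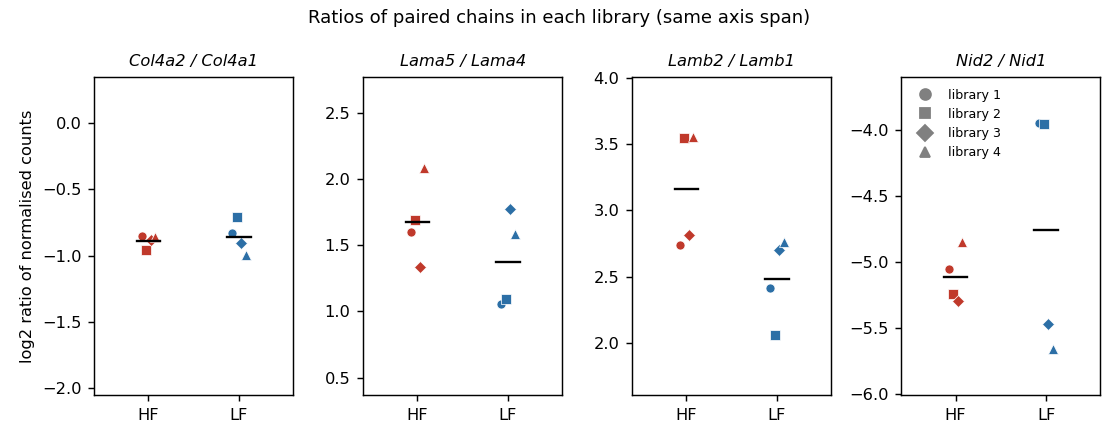
Log2 ratio of normalised counts for Col4a2 over Col4a1, Lama5 over Lama4, Lamb2 over Lamb1 and Nid2 over Nid1 in each HF (red) and LF (blue) library, with the group mean as a black line and axes of equal span. The collagen IV ratio varies least (log2 SD 0.05 in HF and 0.12 in LF), and for Nid2 over Nid1 the LF libraries fall into a high and a low pair.

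Profiles over the 8 libraries were compared by the root mean square difference of the log2 deviations from each gene's mean, where 0 is an identical profile. For Col4a1, whose own deviations had a root mean square of 0.24, the nearest of the set were Nid1 at 0.077 and Col4a2 at 0.081, ranked 16 and 25 among 10849 genes. Col4a1 was also the nearest of the set to Col4a2, ranked 36, and to Nid1, ranked 11. The genes most like Col4a1 among all ranked were Clic4 (0.034), Ap1b1 (0.036), Rmdn3 (0.053), Nod1 (0.058), Pxdn (0.059) and Bcam (0.060). Lamb1 and Lama4 were nearest to each other, at 0.24, with Lama4 ranked 79 for Lamb1 and Lamb1 ranked 821 for Lama4. Hspg2 was nearest to Lamb1 at 0.32, ranked 176. Nid2 was far from all others of the set, with Lama4 nearest at 0.39 and ranked 1508. Lamc1 had no near member either, with Lama5 at 0.25 ranked 2021.

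**Figure D4:**
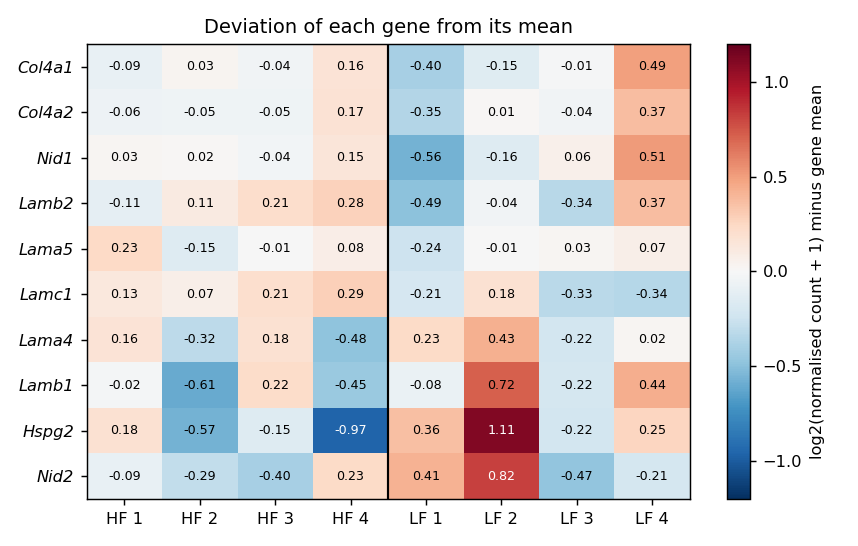
Deviation of log2(normalised count + 1) from each gene's mean over the 8 libraries, HF on the left of the black line and LF on the right, with red above and blue below the mean. Col4a1, Col4a2 and Nid1 share low values in LF 1 and high values in LF 4, while Lama4, Lamb1, Hspg2 and Nid2 are highest in LF 2.

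Genes listed for folding, export and crosslinking of collagen IV mostly had higher means in HF, but the crosslinking genes Lox, Loxl1 and Loxl2 had lower ones. Of the 21 tested of 22 listed, 16 were higher in mean in HF, against 53.2% of all genes tested, and limma called 0. The list's median was 0.29 on the log2 scale, against 0.02 over all genes. At an unadjusted p under 0.05 there were 5 higher and 2 lower, against 6.36% and 4.67% of all genes. The 2 lower were P4ha3, with low counts and a fold of 0.478, and Loxl1, with a fold of 0.595 (limma adjusted p = 0.441 and 0.435). Of the other crosslinking genes, Lox had a fold of 0.842, Loxl2 one of 0.801 and Pxdn one of 1.08. Crtap, a subunit of the prolyl 3-hydroxylase complex, was at 862 ± 205 in HF against 414 ± 144 in LF, a fold of 2.13 (limma adjusted p = 0.163). Colgalt1, which adds galactose to hydroxylysine of collagens, was at 2113 ± 347 and 1191 ± 233, a fold of 1.78 (limma adjusted p = 0.143), and its exons overlap those of Unc13a on the other strand over 495 bases. Mia2, which helps load bulky cargo such as collagens at endoplasmic reticulum exit sites, had a fold of 1.41 (limma adjusted p = 0.232). The HF values of these 3 genes lay above all LF values, against 3.47% of all genes tested in that direction. P3h1, the prolyl 3-hydroxylase that Crtap accompanies, had a fold of 1.32 (limma adjusted p = 0.385). Leaving out LF 1 and LF 2 brought the list's median to -0.07 with 4 genes called higher, against 3.09% of all genes. Leaving out LF 3 and LF 4 brought it to 0.33 with 10 called higher, against 14.0%.

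Receptors for basement membrane proteins had higher means in HF for 10 of 14 genes, against 53.2% of all genes tested, and limma called 0. The list's median on the log2 scale was 0.18, and 0.06 with quantile normalisation. Itga6, the integrin chain that binds laminins, was at 8094 ± 1256 and 5809 ± 959.9, a fold of 1.39 (limma adjusted p = 0.287). Dag1, the dystroglycan that binds laminin alpha chains and perlecan, had a log2 fold change of 0.38 and Itgav, an integrin chain for RGD-containing matrix proteins, one of 0.33 (limma adjusted p = 0.397 and 0.393). Itga9, the chain of the tenascin-binding integrin, had a fold of 1.26 with groups that overlapped widely (limma adjusted p = 0.548). At an unadjusted p under 0.05, 3 genes of the list were higher and 0 lower, against 6.36% and 4.67% of all genes. Leaving out LF 1 and LF 2 gave a median of 0.12 with 0 called, and leaving out LF 3 and LF 4 one of 0.24 with 5 called higher, against 14.0% of all genes.

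Other basement membrane components had lower means in HF for 15 of the 21 tested, of 25 listed, while 53.2% of all genes were higher. The median was -0.56 against 0.02 over all genes. limma called 0 of the list, with 1 higher and 2 lower at an unadjusted p under 0.05, against 6.36% and 4.67% of all genes. Lama2, the alpha chain typical of muscle and mesenchyme, was at 70.4 ± 36.8 in HF against 154 ± 49.1 in LF, a fold of 0.438 (limma adjusted p = 0.244). Col4a5, a chain of the alternative collagen IV network of epithelial basement membranes, had a fold of 0.558 (limma adjusted p = 0.454). Of the fibulins, glycoproteins that bind laminin and nidogen, Fbln1 had a fold of 0.661 and Fbln2 one of 1.31 (limma adjusted p = 0.449 and 0.372). Leaving out LF 1 and LF 2 moved the median of this list to -0.09 with 0 called, and leaving out LF 3 and LF 4 to -0.76 with 3 called lower, against 6.02% of all genes.

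Proteases of the matrix and their inhibitors were split, with 10 of 20 tested genes higher and 10 lower in HF and a median of 0.02. limma called 0, with 3 higher and 3 lower at an unadjusted p under 0.05, against 6.36% and 4.67% of all genes. Timp2, an inhibitor of metalloproteinases, was at 9681 ± 3209 in HF against 5033 ± 1609 in LF, a fold of 1.91 (limma adjusted p = 0.209). Mmp15, a membrane-bound metalloproteinase, had a fold of 1.32 with every HF value above every LF value (limma adjusted p = 0.230), and Reck, a membrane-anchored inhibitor of metalloproteinases, one of 0.779 (limma adjusted p = 0.372). Of the 20 genes, 1 had all HF values above the LF values and 2 had them all below, against 3.47% and 1.96% of all genes. Of these, the metalloproteinase inhibitor Timp1, named after its values were seen, was at 12.0 ± 2.51 in HF against 19.3 ± 3.55 in LF (limma adjusted p = 0.506). Leaving out LF 1 and LF 2 gave a median of -0.12 with 2 called higher, and leaving out LF 3 and LF 4 one of -0.06 with 4 called higher, against 3.09% and 14.0% of all genes.

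**Figure D5:**
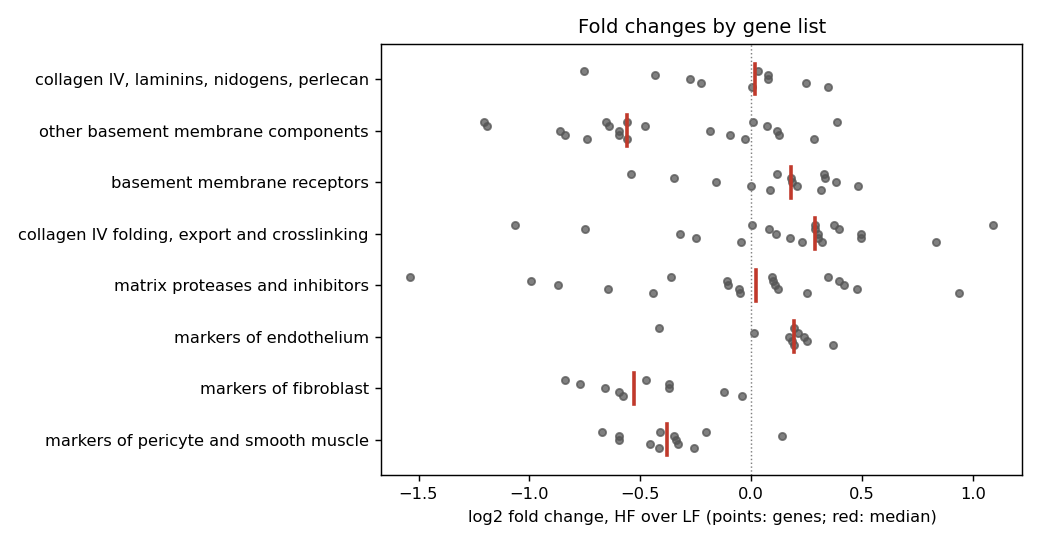
HF over LF on the log2 scale for each tested gene (grey points) by gene list, with the list median in red. The median is 0.02 for the 10 basement membrane genes, -0.56 for other basement membrane components and 0.29 for collagen IV folding, export and crosslinking, while fibroblast (-0.53) and pericyte and smooth muscle markers (-0.38) lie mostly below 0.

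Markers of other lung cells mostly had lower means in HF, while 53.2% of all genes tested were higher. With all 8 libraries limma called 0 of these markers. At an unadjusted p under 0.05, 7 fibroblast, 7 pericyte and smooth muscle, 3 airway, 3 leukocyte, 1 alveolar and 1 mesothelial marker were lower. Of these lists 0 were higher, against 4.67% of all genes lower and 6.36% higher. HF lay wholly below LF in 4 pericyte and smooth muscle, 2 fibroblast, 2 airway and 1 mesothelial marker, against 1.96% of all genes. Fibroblasts, pericytes, smooth muscle and alveolar epithelium make basement membrane proteins too. Pericyte and smooth muscle markers had the lower mean in HF in 11 of 12 genes, and their summed normalised counts were 3803 to 4277 in HF and 4735 to 6655 in LF, with LF 2 highest. Fibroblast markers were lower in 10 of 10, with sums of 8047 to 12179.5 in HF and 11535 to 16094 in LF, again with LF 2 highest. Alveolar epithelial markers were lower in 8 of 10, with sums of 16850.4 to 25515.5 and 19585 to 38214. Airway epithelial markers were lower in 7 of 7 tested, with sums of 3817 to 5833 and 6253 to 9153, and leukocyte markers in 9 of 9 tested, with sums of 3676 to 6921 and 6450.4 to 7945. Mesothelial sums were 198 to 317 and 337 to 640.1, with 2 of 5 markers tested and both lower in HF. Endothelial markers had the higher mean in HF in 9 of 10, with sums of 162601 to 183369 in HF and 120205 to 198064 in LF, and LF 1 lowest. The exception, Erg, had a fold of 0.750 (limma unadjusted p = 0.00746, adjusted p = 0.261). Its HF values lay all below its LF values, against 1.96% of all genes tested. Erg was the only endothelial marker with an unadjusted p under 0.05. No marker of any of these lists was at 0 in every library.

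The direction of 3 marker lists depended on the LF libraries. Leaving out LF 1 and LF 2 turned the median log2 fold change of endothelial markers from 0.19 to -0.07, that of alveolar markers from -0.27 to 0.14 and that of mesothelial markers from -0.53 to 0.09. Leaving out LF 3 and LF 4 gave 0.44 for endothelial markers, with 8 called higher and 1 lower, and -0.92 for alveolar markers, with 5 of 10 called lower, against 14.0% of all genes called higher and 6.02% lower. For mesothelial markers it gave -1.15. The other marker lists kept a negative median in both fits, at -0.46 and -0.64 for fibroblasts, -0.34 and -0.47 for pericytes and smooth muscle, -0.59 and -0.97 for airway epithelium, and -0.69 and -0.64 for leukocytes.

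LF 2, with the highest fibroblast, pericyte and alveolar marker sums, was also the highest library for Lama4, Lamb1, Nid2 and Hspg2, and LF 1, with the lowest endothelial sum, the lowest for Col4a1, Col4a2, Nid1, Lama5 and Lamb2. Pdgfrb, a pericyte receptor, was at 947 ± 109 in HF against 1461 ± 379 in LF, a fold of 0.662 (limma adjusted p = 0.223). Col1a1, a fibroblast collagen, had a fold of 0.661 (limma adjusted p = 0.548), the surfactant gene Sftpc one of 0.913 (limma adjusted p = 0.857) and the airway secretoglobin Scgb3a2 one of 0.419 (limma adjusted p = 0.146). Cdh5, the cadherin of endothelial junctions, had a fold of 1.18 (limma adjusted p = 0.548). The part of these other cells in the differences of the basement membrane genes was not tested.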

How the data were processed

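Normalised read counts were analysed for 8 RNA-seq libraries of lung endothelial cells, 4 HF and 4 LF. DESeq2 1.24.0, featureCounts 2.0.0 and STAR 2.6.1b are named, with no roles, in the submitters' processing notes. The authors deposited a normalised signal per gene and library, that is, a read count divided by a size factor. Per the file headers, the table also holds the authors' log2 fold change, its standard error, a test score and the p-value before and after adjustment. The sources used here do not give genome build, annotation or strand setting. All values were whole multiples of 1 step per library (tolerance 0.01 reads, 100% of values), so whole reads were recovered. Depth of 10631506 to 20781564 reads limits the precision of Nid2 and Hspg2 most, and reads without molecular identifiers are not independent molecules.

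The 17067 genes that reached 10 normalised counts in 4 or more libraries were tested two-sided with limma 3.58.1 (trend option) on log2(value + 1), with Benjamini-Hochberg adjustment over all of them. edgeR 4.0.16 and DESeq2 1.42.0 on recovered reads, other pseudocounts, filters, quantile normalisation, a replicate block and left-out libraries were alternatives. Fits were tested on simulated counts. Ratios were compared by an exact permutation test. Named genes were the 10 basement membrane genes, up to 4 per list with the smallest p, the 6 profiles nearest to Col4a1 (mean of at least 50) and markers of the sort. The result for 1 gene chosen by this rule, a matrix protease with a lower mean in HF, is not reported here. The 10 genes, the 4 functional and 7 marker lists and the left-out LF pairs were chosen with earlier results of these data known. GENCODE M21 supplied positions and lengths and RefSeq the promoters. No column of values lacked a sample.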

Additional observations from a re-analysis of the deposited data

Results flagged for a closer look

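Col4a2 in HF 4, at 7527 normalised counts, lay far from the other HF libraries, which were at 6403 to 6469. Of 42 groups of 4 examined (10 genes, 4 ratios and 7 marker sums in HF and LF), this was the 1 whose gap, 0.941 of the group's range, was above Dixon's 95% critical value. Chance alone gives about 1 in 20 groups.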

How the results depend on the processing

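Depth limits Nid2 and Hspg2 most, and 4 libraries a group limit every test. The number of genes that limma called was 0 with all 8 libraries, 641 without LF 1 and LF 2, 3421 without LF 3 and LF 4 and 1 without a filter, DESeq2 called 326, and leaving out 1 library gave 0 to 1. Of the 10 basement membrane genes, 1 was called without LF 1 and LF 2 (Lamc1, 0.51), against 3.76% of all genes. Without LF 3 and LF 4, 3 were called (Nid1 at 0.40, Nid2 at -0.75 and Hspg2 at -1.11), against 20.0% of all genes. The LF pairs were chosen from the same values, so these calls are descriptive, and their cause was not tested. Groups did not overlap in 1 of the 10 genes without LF 1 and LF 2 and in 5 without LF 3 and LF 4, against 22.4% and 46.1% of all genes. With 1 library left out this held for 0 to 1 of the 10. These were Lamc1 without LF 2 and Hspg2 without LF 3, against 7.95% and 9.43% of all genes.

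Signs turned in 20 of 180 alternatives for the 10 genes. Col4a1 was at -0.0029 by DESeq2, -0.016 by edgeR, -0.060 with quantile normalisation, -0.22 without LF 1 and LF 2 and -0.095 to 0.20 with 1 library left out. Col4a2 was at -0.016, -0.030, -0.12, -0.16 and -0.11 to 0.13 in the same order. Lama5 was at -0.029 and Nid1 at -0.046 with quantile normalisation, and without LF 1 and LF 2 they were at -0.013 and -0.25, and Nid2 at 0.20. Nid1 ranged from -0.0999 to 0.26 with 1 library left out. Log2 ratios that turned without LF 1 and LF 2 were Col4a2 over Col4a1 (0.062), Lama5 over Lama4 (-0.0016) and Nid2 over Nid1 (0.45), and the first ranged from -0.073 to 0.022 with 1 library left out. List medians moved to -0.091 for other components and -0.070 for collagen IV folding without LF 1 and LF 2, and to 0.057 for receptors with quantile normalisation. The causes were not tested.

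With the replicate number as a block (replicate block), limma called 0 genes, Lamc1 was at an adjusted p of 0.469 and Hspg2 at 0.446, and no call changed. Deviations of same-numbered libraries correlated at 0.11, -0.22, -0.14 and 0.18, and 1 of 4 HF libraries correlated best with its own number. Weak correlations cannot show whether libraries were prepared in pairs by number.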
